A study of Homo sapiens with 6 samples.

Results

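The genes described here encode the enzymes that write and erase DNA methylation and the core of Polycomb repressive complex 2 (PRC2). They are the DNA methyltransferases DNMT1, DNMT3A and DNMT3B, the TET dioxygenases TET1, TET2 and TET3, and the PRC2 genes EZH1, EZH2, EED and SUZ12. They were chosen by name, 10 of the 56638 gene names counted, and all 10 were among the 16340 genes tested. RNA of HL60, an established human cell line derived from a patient with promyelocyte-rich acute leukaemia, was sequenced from 3 libraries of cells with a CRISPR/Cas9 deletion of SKI and 3 libraries of cells with a CRISPR/Cas9 control. SKI encodes a transcriptional co-repressor of SMAD and other factors. Both groups were grown in RPMI with 10% serum and no other treatment is named. The deletion libraries carry line number 3 in their labels and the control libraries line number 1, so that each condition was 1 line. Nothing in the labels says that replicates were separate cultures, and the p-values then cover no more than library-to-library spread, which may be technical.

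DNMT1 copies methylation of CpG dinucleotides onto the new strand after replication, guided by UHRF1, while DNMT3A and DNMT3B place methylation on unmethylated DNA. TET enzymes oxidise 5-methylcytosine with 2-oxoglutarate as co-substrate, which starts its removal. PRC2 methylates histone H3 at K27 through EZH2 or its paralogue EZH1, and needs EED and SUZ12 to be active. In myeloid leukaemia DNMT3A, TET2 and EZH2 are recurrently mutated, and an RNA level says nothing about whether the protein is active.

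Promoter sequences of all 10 genes were found in RefSeq (GRCh38.p14), as windows of 300 bases with 250 before and 50 after a start. Many genes of the DNA replication programme hold a site for E2F factors, and the 4 octamers TTTCCCGC, TTTCGCGC, TTTGCCGC and TTTGGCGC were searched on both strands. A match was found in 4 of the 10 genes, DNMT1, EZH1, EZH2 and SUZ12, against 6.74% of the 9513 tested genes with a window and 3.31% of all 35116 windows. The matched stretches are shown because the 4 genes had log2 fold changes from -0.71 to 0.34 between the groups, with the octamer in capitals on the strand of the gene. UHRF1, which fell as DNMT1 did, is set beside them. The UHRF1 match shown begins at base -160 from its start, and another UHRF1 window holds a match to TTTCCCGC from base -14. PHF19, which also fell, held a match too and is not shown. No other gene outside the 10 was looked up singly, and a link between a match and a fall was not tested. Each octamer holds CpG dinucleotides, and a match is a description of the letters, not a bound site.
DNMT1, chr19:10194937-10194966, minus strand: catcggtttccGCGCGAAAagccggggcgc
EZH1, chr17:42745137-42745166, minus strand: gcggggttttgGCGGCAAAtgacagtagtg
EZH2, chr7:148884272-148884301, minus strand: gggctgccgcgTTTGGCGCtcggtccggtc
SUZ12, chr17:31936807-31936836, plus strand: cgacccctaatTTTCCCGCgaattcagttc
UHRF1, chr19:4909973-4910002, plus strand: cccgagcccgaTTTCGCGCgccctgagttc

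CpG dinucleotides, the substrate of the DNMT and TET enzymes, were unevenly spread over these windows. The median was 25 over windows of tested genes and 14 over all windows. DNMT1 and EZH1 had 30 each, SUZ12 had 40, the windows of EZH2 had 45 and 46, and EED had 16, below the median of tested genes. DNMT3B had 3 in the window of the RefSeq table, below both medians. DNMT3B has further annotated starts upstream of it, which are not analysed here. The 250 bases before the start are shown for SUZ12 and DNMT3B as a CpG-rich window and the CpG-poorest, with each CpG in capitals, and no methylation was measured in these cells.
SUZ12, chr17:31936757-31937006, plus strand: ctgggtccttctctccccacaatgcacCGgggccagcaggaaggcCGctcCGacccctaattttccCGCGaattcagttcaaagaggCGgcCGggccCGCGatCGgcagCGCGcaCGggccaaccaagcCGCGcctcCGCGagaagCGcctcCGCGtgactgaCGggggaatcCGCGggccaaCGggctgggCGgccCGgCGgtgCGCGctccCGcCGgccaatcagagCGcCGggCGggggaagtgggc
DNMT3B, chr20:32779602-32779851, plus strand: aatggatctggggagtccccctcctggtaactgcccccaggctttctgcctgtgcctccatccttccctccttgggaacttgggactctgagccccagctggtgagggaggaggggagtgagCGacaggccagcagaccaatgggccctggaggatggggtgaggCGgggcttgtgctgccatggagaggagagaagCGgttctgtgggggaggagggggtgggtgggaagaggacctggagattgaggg

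Library totals were between 47930276 and 58553247 counts, and the lowest count of any of the 10 genes was 50, for TET1. SKI itself stood at 60.3% of its control level in the deletion libraries (edgeR adjusted p = 0.0282). Of 7 markers of HL60 promyelocytes 6 were tested and all 6 were lower in the SKI knockout, against 5.63% of all tested genes. Among them MPO, myeloperoxidase, was at a log2 fold change of -1.39. After chromosome centring 4 of the 6 kept their call, while ELANE had at most 4 counts in any library. Of 16 markers of other cell types MS4A1, ALAS2, PF4 and PECAM1 had no count in any library, and the summed level of the list was 15.8 to 23.5 CPM (counts scaled to library size) in the control and 18.5 to 30.4 CPM in the knockout. Only 3 of the 16 reached the test, with a median log2 fold change of 0.93. CD79A, a B cell receptor gene, rose from between 0.921 and 1.39 CPM to between 2.05 and 5.87 CPM (log2 1.70, edgeR adjusted p = 0.0162), while KRT8 at 0.93 and NKG7 at -0.09 did not pass. The part of either marker list in the results below was not tested.

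Per kilobase of gene length DNMT1 and EZH2 were the most abundant of the 10 transcripts and TET1 the least. Gene length is the value deposited with the counts for each gene, here and below. The lengths of the transcripts present in these cells were not measured, so levels compared between genes are approximate. In the control, DNMT1 stood at 46.5 ± 5.62 CPM per kb (SD, n = 3), EZH2 at 26.7 ± 6.70, EZH1 at 9.01 ± 0.640, SUZ12 at 7.88 ± 1.48 and TET3 at 6.80 ± 1.69. EED followed at 3.13 ± 0.137, DNMT3B at 1.91 ± 0.210, TET2 at 1.23 ± 0.349, DNMT3A at 0.825 ± 0.162 and TET1 at 0.194 ± 0.0209 CPM per kb (SD, n = 3). Control ranges overlapped between EZH1 and SUZ12, between SUZ12 and TET3 and between TET2 and DNMT3A. Compared within each control library, the order of EZH1 and SUZ12 and that of SUZ12 and TET3 changed between libraries. TET2 stood above DNMT3A in each, at 0.841, 1.51 and 1.34 against 0.694, 0.775 and 1.01 CPM per kb. In the knockout the order was the same except that SUZ12, at 9.96 ± 1.67 CPM per kb, stood above EZH1, at 7.66 ± 0.687 (SD, n = 3). DNMT1, at 28.3 ± 4.11 CPM per kb, and EZH2, at 25.6 ± 0.865, did not overlap in the control libraries but did in the knockout libraries (SD, n = 3). Within each knockout library DNMT1 still stood above EZH2.

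**Figure D1:**
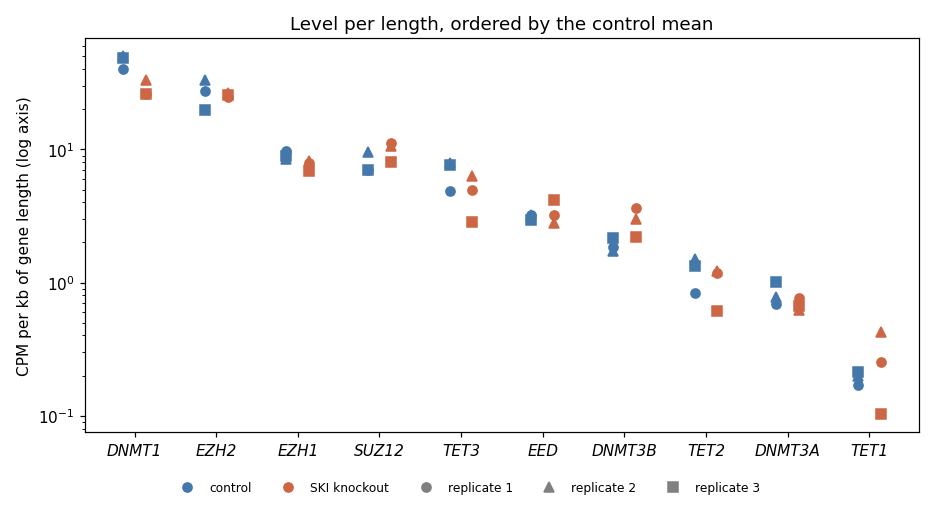
Level of each gene in CPM per kb of gene length on a log axis, with 1 point per library (blue control, orange SKI knockout, marker shape by replicate), ordered by the control mean. DNMT1 is highest in both groups and TET1 lowest, and the knockout points of DNMT1 lie below its control points.

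Of the 10 genes, DNMT1 fell in the SKI knockout and the other 9 did not pass the test. The background over all genes was 11.8% called in edgeR's quasi-likelihood test at an adjusted p under 0.05, 5.63% lower and 6.19% higher, so that 1 of 10 is near the background. Control and knockout libraries were fully separated for 3 of the 10, DNMT1, EZH1 and DNMT3B, where 32.2% of all tested genes did not overlap. Log2 fold changes were below 0 for 6 genes and above 0 for 4, with a median of -0.15 against -0.01 over all genes tested.

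**Figure D2:**
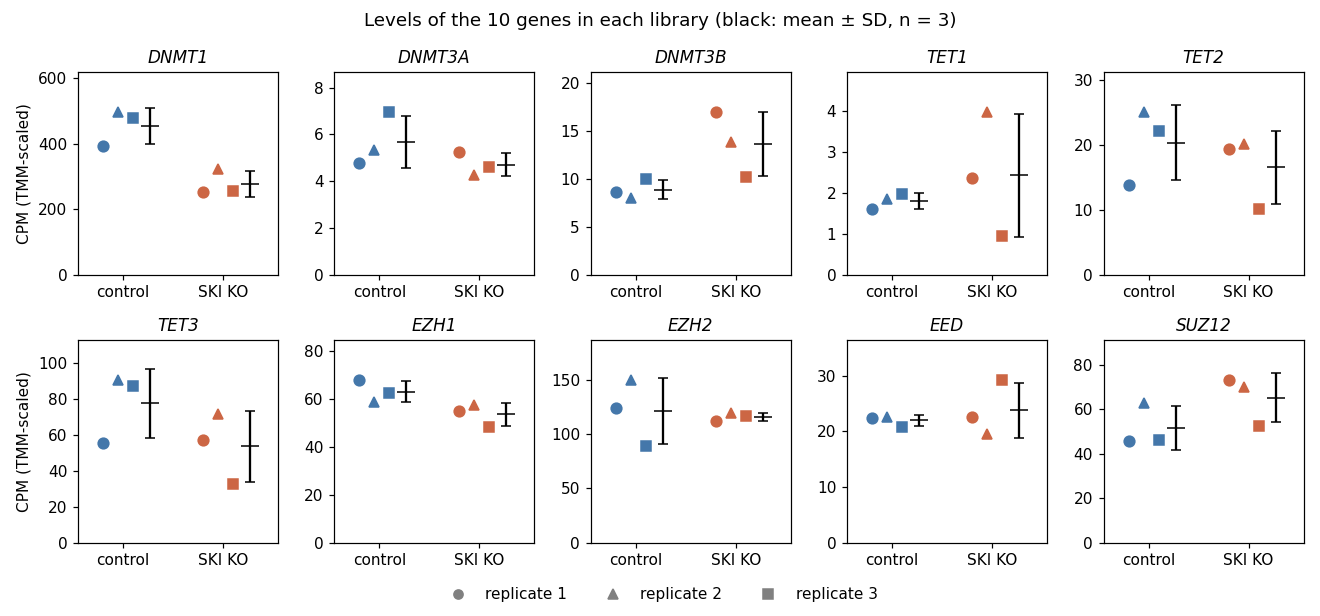
Level of each of the 10 genes in CPM, with 1 point per library (blue control, orange SKI knockout, marker shape by replicate) and the mean ± SD of each group in black (n = 3). DNMT1 falls from 456 to 278 CPM without overlap, and EZH2 has means of 121 and 116 CPM. Replicate 3 of the knockout is the lowest knockout library for TET1, TET2 and TET3, and also for DNMT3B, EZH1 and SUZ12.

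DNMT1, the maintenance methyltransferase, measured 393, 496 and 478 CPM in the control and 254, 324 and 255 CPM in the knockout. All 3 knockout libraries lay below all 3 control libraries. The means were 456 ± 55.1 and 278 ± 40.3 CPM (SD, n = 3), which is 61.0% of the control on the fitted scale, a log2 fold change of -0.71 (SE 0.17, edgeR adjusted p = 0.0197). Leaving out 1 library ended the call in 3 cases, control replicate 2 (log2 -0.65, edgeR adjusted p = 0.101), control replicate 3 (-0.68, 0.0926) or knockout replicate 1 (-0.64, 0.0751), with the direction kept. Exons of DNMT1 overlap S1PR2 on the same strand, a gene with at most 97 counts in a library.

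DNMT1 lies on chromosome 19, whose genes as a whole were lower in the knockout. Over 682 other genes of that chromosome with an average log2 CPM above 2 the median stood at a log2 fold change of -0.48, and 26.0% had a lower value than DNMT1. The median of its 50 nearest tested genes was -0.53. Centred on the chromosome median, DNMT1 was at a log2 fold change of -0.22 with an edgeR adjusted p of 0.492, and centred on those neighbours at -0.19 with 0.554, so that neither call remained. Of the 972 tested genes of chromosome 19, 281 were lower, and 26 were lower after chromosome centring. The 2 tested genes whose profile over the 6 libraries was most like that of DNMT1, out of 7623 whose average log2 CPM was 4 or more, were DUS3L and AKT2. Their root mean square differences from the DNMT1 profile were 0.0698 and 0.0730 on the log2 scale, and both are on chromosome 19. DUS3L was at a log2 fold change of -0.69 and AKT2 at -0.75, values near that of DNMT1 because the genes were picked by likeness to it.

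**Figure D3:**
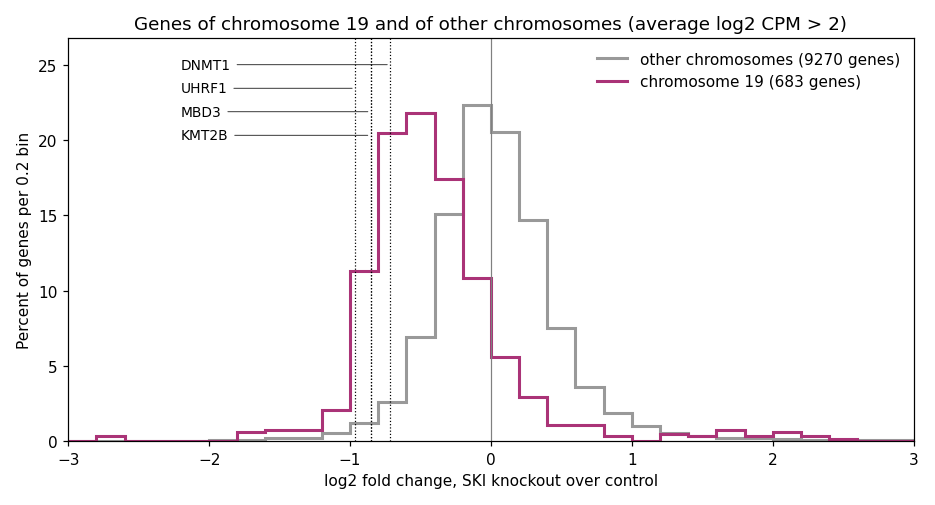
Percent of genes in each bin of log2 fold change (width 0.2, SKI knockout over control) for 683 genes of chromosome 19 (purple) and 9270 genes of other chromosomes (grey), with dotted lines at DNMT1, UHRF1, MBD3 and KMT2B. The purple curve is shifted to the left, with a median of -0.48, and the 4 marked genes lie in its left shoulder, MBD3 and KMT2B at the same place.

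DNMT3B, a de novo methyltransferase, was at 8.60, 8.04 and 9.93 CPM in the control and at 16.9, 13.8 and 10.2 CPM in the knockout. The groups did not overlap, though knockout replicate 3 was close to control replicate 3. The log2 fold change was 0.62 (SE 0.21, 95% interval 0.15 to 1.09, edgeR adjusted p = 0.0831), which missed the threshold. It passed in 3 of 17 alternatives, without knockout replicate 3 (log2 0.82, edgeR adjusted p = 0.0116), in DESeq2 (0.63, 0.0406) and with no filter on low counts (0.65, 0.0380), and the authors' deposited table gives 0.59 with an adjusted p of 0.0389. Without single libraries the value ranged from 0.45 to 0.82 and the edgeR adjusted p from 0.0116 to 0.249. Chromosome centring left it at 0.63. DNMT3A, the other de novo enzyme, was at 4.79, 5.35 and 6.94 CPM in the control and at 5.24, 4.26 and 4.61 CPM in the knockout. These ranges overlapped, and the log2 fold change of -0.27 had a 95% interval from -0.77 to 0.22 (edgeR adjusted p = 0.472).

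The shares of the 3 DNMT transcripts are given as values, with no test. DNMT1 made up 94.0%, 95.3% and 93.9% of the 3 DNMT transcripts per kb in the control and 85.4%, 90.2% and 90.1% in the knockout. DNMT3B made up 3.92% ± 0.572 in the control and 9.26% ± 2.43 in the knockout (SD, n = 3). The log2 ratio of DNMT3A to DNMT3B was -1.42, -1.16 and -1.09 in the control libraries and -2.27, -2.27 and -1.72 in the knockout libraries. The groups did not overlap, with a difference of -0.86 and a two-sided exact permutation p of 0.1, the smallest that 3 against 3 allows (0.3 adjusted over the 6 ratios computed). The ratio of DNMT1 to DNMT3A overlapped between the groups, with a difference of -0.45 on the log2 scale (exact permutation p = 0.2, adjusted 0.3). Both ratios were free of library scaling. DNMT1 lies on chromosome 19, whose genes as a whole were lower, and the shares and ratios were not centred. DNMT1 is part of its ratio to DNMT3A and makes up most of the denominator of both shares. The ratio of DNMT3A to DNMT3B does not contain DNMT1. The part of the chromosome 19 shift in these values was not tested.

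Of 10 cofactors and regulators of the DNMT enzymes 8 were tested, and UHRF1 fell while the other 7 missed the threshold. The share called among all tested genes was 11.8%. UHRF1, which brings DNMT1 to hemimethylated DNA, was at 176, 196 and 190 CPM in the control and at 73.3, 117 and 98.3 CPM in the knockout, with no overlap. Its log2 fold change was -0.96 (SE 0.18, edgeR adjusted p = 0.00623), the median of the 8 was -0.24, and 7 of them were below 0. UHRF1 also lies on chromosome 19 and was at -0.47 after chromosome centring (edgeR adjusted p = 0.131). None of 26 genes of S phase and mitosis passed, with 19 below 0 and a median of -0.09. The lowest was MCM4, a subunit of the replicative helicase, at a log2 fold change of -0.68 (edgeR adjusted p = 0.0507). Others named here were the mitotic kinase gene PLK1 at -0.45, MCM2 at -0.35, MKI67 at -0.16 and PCNA at -0.05. Another 7 were above 0, the highest being CCNE2 at 0.52 and CDC6 at 0.48. Of 10 genes listed as methyl-CpG readers or relatives of them, MBD3, a subunit of the NuRD complex, fell and 9 did not pass. MBD3 went from 173, 197 and 185 CPM to 93.4, 98.4 and 115 CPM, a log2 fold change of -0.85 (edgeR adjusted p = 0.00447). MBD3 is on chromosome 19 as well, and was at -0.37 after centring (edgeR adjusted p = 0.128).

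None of the TET genes passed the test, and their knockout libraries were spread widely. TET3, the most abundant of them per kb, was at 55.6, 90.6 and 87.2 CPM in the control and at 57.1, 71.8 and 32.6 CPM in the knockout. The groups overlapped because control replicate 1 was low, and the log2 fold change was -0.53 (SE 0.27, 95% interval -1.12 to 0.05, edgeR adjusted p = 0.229). On chromosome 2, where TET3 lies, 5.10% of 647 other genes had a lower log2 fold change than TET3. TET2 was at 13.8, 24.9 and 22.1 CPM in the control and at 19.3, 20.1 and 10.1 CPM in the knockout, with a log2 fold change of -0.30 (95% interval -0.91 to 0.31, edgeR adjusted p = 0.529). TET1 was at 1.59, 1.83 and 1.97 CPM in the control and at 2.35, 3.95 and 0.953 CPM in the knockout. Its knockout libraries lay on both sides of the control, and the log2 fold change of 0.42 had an interval from -0.48 to 1.33 (edgeR adjusted p = 0.553) and was -0.10 without knockout replicate 2.

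Knockout replicate 3 was the lowest knockout library for all 3 TET genes, which have gene lengths of 9288, 16474 and 11439 bases. The same held for DNMT3B, SUZ12 and EZH1, with gene lengths of 4630, 6547 and 6992 bases. In knockout replicate 3 the 2160 long genes, of at least 8000 bases, had a median log2 level 0.25 below their mean over the 6 libraries (-0.25). That median was -0.05 in control replicate 1 and 0.06 to 0.12 in the other 4 libraries. Whether gene length has a part in the levels of these members was not tested. With the trend of each library with gene length removed, TET3 was at a log2 fold change of -0.45 (edgeR adjusted p = 0.188) and TET2 at -0.22 (0.542). Without control replicate 1 and knockout replicate 3, TET3 was at -0.46 (0.120) and TET2 at -0.25 (0.489), so no TET gene was called there either. TET3 made up 82.7% ± 0.443 of TET transcripts per kb in the control and 79.0% ± 1.10 in the knockout (SD, n = 3). The log2 ratio of TET2 to TET3 was -2.53, -2.39 and -2.51 in the control libraries and -2.09, -2.37 and -2.22 in the knockout libraries. These groups did not overlap (difference 0.25, exact permutation p = 0.1, adjusted 0.3), while the ratio of TET2 to TET1 overlapped (difference -0.53, exact permutation p = 0.2, adjusted 0.3).

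Of 12 genes that act with TET enzymes, supply 2-oxoglutarate or repair oxidised bases, 2 rose, 1 fell and 9 missed the threshold. The list median was -0.22, and 11.8% of all tested genes passed. IDH1, the cytosolic isocitrate dehydrogenase that makes 2-oxoglutarate, was at 31.7, 19.5 and 24.5 CPM in the control and at 84.8, 45.3 and 80.2 CPM in the knockout. The groups did not overlap, the log2 fold change was 1.48 (SE 0.25, edgeR adjusted p = 0.00366), and chromosome centring left it at 1.48. SMUG1, a uracil-DNA glycosylase that also removes an oxidised methyl base, rose from 11.2, 7.55 and 11.3 CPM to 18.7, 15.7 and 21.9 CPM (log2 0.91, edgeR adjusted p = 0.0164). WT1, a transcription factor that binds TET2, fell from 29.3, 34.7 and 33.8 CPM to 16.3, 26.1 and 16.4 CPM (log2 -0.74, edgeR adjusted p = 0.0375). After chromosome centring IDH1, SMUG1 and WT1 kept their calls. None of 16 genes of the methyl donor cycle passed, with a median of -0.06.

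**Figure D4:**
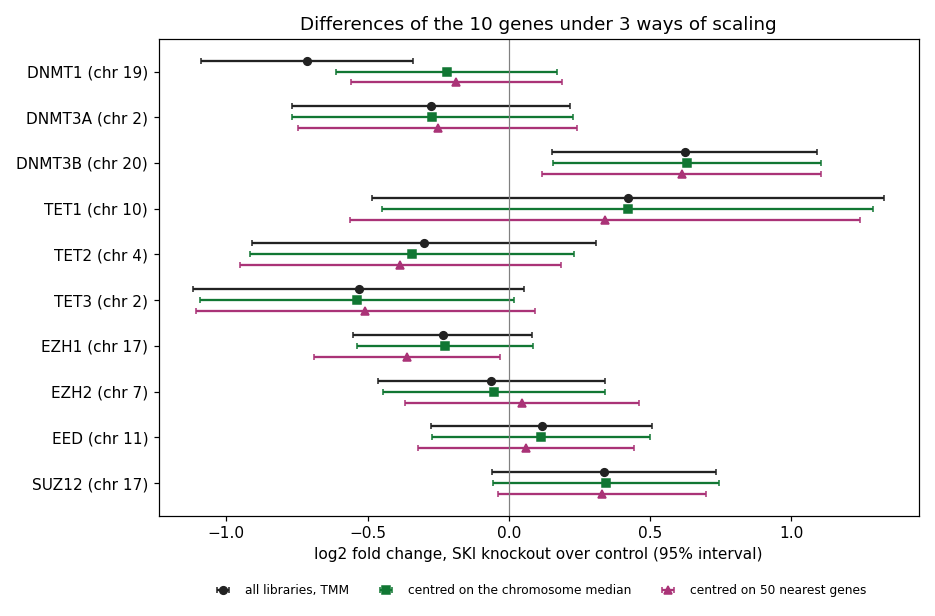
Log2 fold change of each gene, SKI knockout over control, with its 95% interval, from the fit over all libraries (black circles), with each gene centred on its chromosome median (green squares) and on its 50 nearest genes (purple triangles). DNMT1 moves from -0.71 to -0.22 and -0.19, and DNMT3B stays between 0.61 and 0.63.

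PRC2 core transcripts did not pass the test in either direction, and their summed level was 218 to 294 CPM in the control and 246 to 266 CPM in the knockout. EZH2, the catalytic subunit of dividing cells, was at 124, 149 and 89.0 CPM in the control and at 112, 119 and 116 CPM in the knockout. The knockout values lay inside the control range. The log2 fold change was -0.06 (SE 0.18, 95% interval -0.46 to 0.34, edgeR adjusted p = 0.868). It was 0.12 without control replicate 2 and -0.24 without control replicate 3.

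EZH1, the paralogue found also in resting cells, was at 67.8, 58.9 and 62.3 CPM in the control and at 54.9, 57.6 and 48.3 CPM in the knockout. All 3 knockout libraries lay below the control libraries, by a small margin, and the log2 fold change of -0.23 did not pass (SE 0.14, 95% interval -0.55 to 0.08, edgeR adjusted p = 0.329). EZH2 made up 74.1% ± 5.42 of EZH transcripts per kb in the control and 77.0% ± 1.61 in the knockout (SD, n = 3). The ratio of EZH2 to EZH1 per kb was 2.82, 3.92 and 2.21 in the control libraries and 3.14, 3.20 and 3.72 in those of the knockout. The knockout ratios lay within the control range, with a difference of 0.21 on the log2 scale (exact permutation p = 0.5, adjusted 0.5).

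SUZ12, the scaffold subunit, was at 45.8, 62.8 and 46.3 CPM in the control and at 73.1, 69.8 and 52.7 CPM in the knockout. Control replicate 2 stood above knockout replicate 3, and the log2 fold change was 0.34 (SE 0.18, 95% interval -0.06 to 0.73, edgeR adjusted p = 0.261). SUZ12 has a partial copy, listed as SUZ12P, with 505 to 981 counts a library against 2187 to 4044 for SUZ12, and how reads common to both were assigned is not stated, so both values are uncertain. EED, which binds the methylated histone tail, was at 22.4, 22.6 and 20.9 CPM in the control and at 22.7, 19.5 and 29.2 CPM in the knockout. Knockout replicate 3 was its highest library and knockout replicate 2 its lowest, and the log2 fold change was 0.12 (95% interval -0.28 to 0.51, edgeR adjusted p = 0.722). The log2 ratio of EED to SUZ12 overlapped between the groups, with a difference of -0.24 (exact permutation p = 0.5, adjusted 0.5).

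Of 10 histone-binding and accessory subunits of PRC2 9 were tested, of which PHF1 rose, PHF19 fell and 7 missed the threshold (list median -0.15). For comparison, 11.8% of all tested genes passed. PHF1 and PHF19 are related Polycomb-like proteins that bring PRC2 to chromatin. PHF1 was at 46.6, 49.2 and 45.8 CPM in the control and at 76.4, 62.2 and 79.1 CPM in the knockout (log2 0.62, SE 0.15, edgeR adjusted p = 0.0197). PHF19 was at 133, 158 and 136 CPM in the control and at 90.1, 93.5 and 77.5 CPM in the knockout (log2 -0.71, SE 0.15, edgeR adjusted p = 0.0105). Neither pair of groups overlapped. PHF1 lies on chromosome 6, with a median of 0.42 over 510 genes, and was at 0.20 after chromosome centring (edgeR adjusted p = 0.451). PHF19 lies on chromosome 9, with a median of -0.22 over 404 genes, and was at -0.50 after centring (0.0558). With neighbour centring PHF19 was at -0.32 (edgeR adjusted p = 0.198) and PHF1 at 0.20 (0.450). MTF2, the other Polycomb-like gene, was at a log2 fold change of 0.10 and JARID2, which guides PRC2 to its targets, at 0.01, neither of which passed.

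Among tested genes of 4 lists of complexes that work beside or against PRC2, 4 of 43 (9.3%) passed, near the 11.8% over all genes. Of 22 PRC1 subunit genes CBX7, which reads H3K27 methylation, rose and 21 missed the threshold (list median 0.02). CBX7 went from 6.90, 5.48 and 8.10 CPM to 11.5, 10.8 and 17.9 CPM (log2 0.97, edgeR adjusted p = 0.0227), and was at 0.75 after centring on chromosome 22 (0.0721). None of 5 tested H3K27 demethylase and H2A deubiquitinase genes passed, with KDM6A at 0.01 and KDM6B at 0.32 on the log2 scale, and none of 5 H3K36 methyltransferase genes. Of 11 genes of the KMT2 complexes, which methylate H3K4, WDR5, KMT2B and KMT2D fell and 8 missed the threshold (list median -0.41). WDR5, a shared subunit, went from 147, 175 and 157 CPM to 72.7, 96.1 and 68.2 CPM (log2 -1.02, edgeR adjusted p = 0.00343), and was at -0.81 after chromosome centring (0.00992) and at -0.49 with neighbour centring (0.0923). KMT2D was at -0.87 (edgeR adjusted p = 0.0394), at -0.89 after chromosome centring and at -0.81 with neighbour centring, where the call was lost (0.0714). KMT2B, on chromosome 19, was at -0.85 and at -0.35 after centring (edgeR adjusted p = 0.373).

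**Figure D5:**
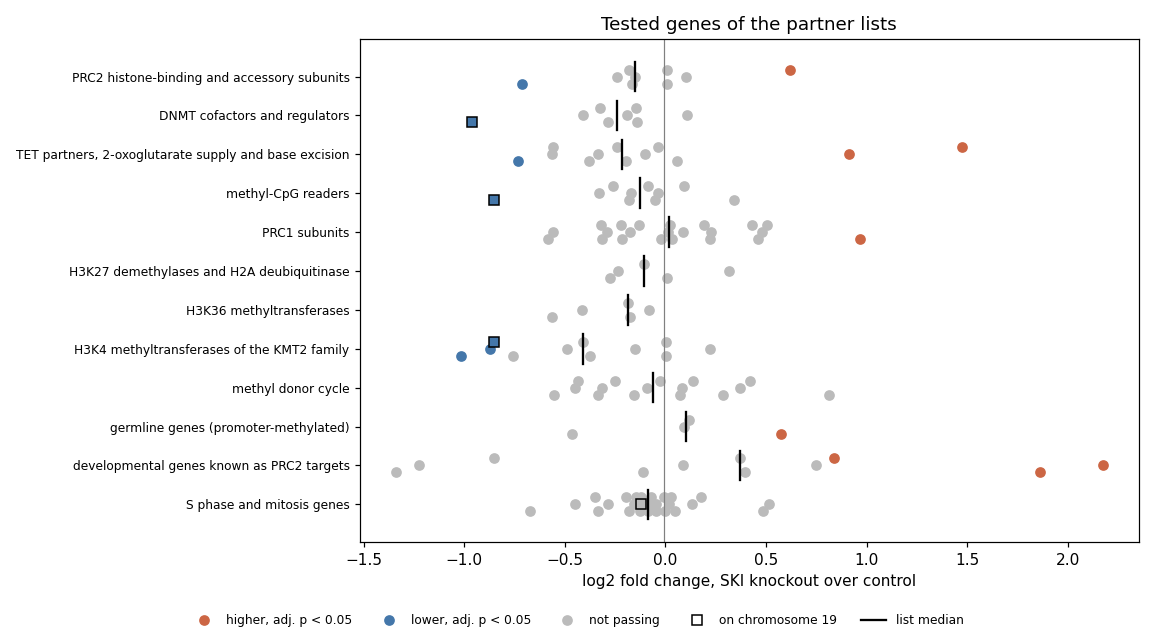
Log2 fold change, SKI knockout over control, of each tested gene in 12 lists of partners, related complexes and target genes, with genes that passed in orange (higher) and blue (lower), list medians as black bars and genes of chromosome 19 as squares. Of 139 genes 15 passed, and 3 of the 4 genes on chromosome 19 are among those that fell.

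In these lists 4 tested genes lay on chromosome 19, UHRF1, MBD3, KMT2B and the cyclin gene CCNE1. Their log2 fold changes were all below 0, 3 of them fell, and none was called after chromosome centring. Over the 139 genes of all 12 lists 15 passed (10.8%), near the 11.8% over all genes. With chromosome centring 8 of the 15 kept their call, UHRF1, MBD3, KMT2B, PHF1, PHF19, CBX7 and PAX6 lost it, and 2 others gained one. Those were the PRC1 gene KDM2B, at a log2 fold change of -0.60 (edgeR adjusted p = 0.0496), and the H3K4 methyltransferase gene SETD1B, at -0.77 (0.0484).

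Genes known for silencing by DNA methylation or by PRC2 were mostly not expressed. Of 26 germline genes that somatic cells silence by promoter methylation 4 were tested and 9 had no count in any library. GTSF1 rose from 84.1, 80.7 and 70.6 CPM to 117, 115 and 119 CPM (log2 0.58, edgeR adjusted p = 0.0209, and 0.0687 with neighbour centring), and the other 3 did not pass. GTSF1 was thus well expressed in the control too. Of 32 developmental and cell-cycle inhibitor genes known as PRC2 targets 11 were tested and 15 had no count, and 3 rose. Among all tested genes 6.19% rose. Of the 11 tested targets 7 were above 0 and 4 below. The lowest were BARX1 at -1.34, TBX15 at -1.23 and NEUROG2 at -0.85, which did not pass (edgeR adjusted p = 0.0714, 0.0724 and 0.0749). CDKN2B, which encodes the CDK inhibitor p15, was between 1.27 and 3.03 CPM in the control and between 3.50 and 15.9 CPM in the knockout, with no overlap (log2 2.18, edgeR adjusted p = 0.0131). PAX6, a transcription factor of eye and brain, rose by 0.84 (edgeR adjusted p = 0.0453). CDKN1C, which encodes the CDK inhibitor p57, was at 1.86 (0.0378), from 0.314 CPM or less to between 0.373 and 0.953 CPM. It had 15, 6 and 7 counts in the control libraries and 33, 18 and 50 in the knockout libraries. CDKN1C thus reached the test through its knockout level, and its p-value is no support for a rise. PAX6 lost its call with chromosome centring (edgeR adjusted p = 0.0571) and CDKN1C with neighbour centring (0.0519). A gene that is silent in the control can enter these tests only if it is higher in the knockout, so these counts say nothing of the lists as a whole.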

How the data were processed

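Stranded mRNA libraries of 6 HL60 samples came from a TruSeq kit, according to the labels' protocols. TopHat2, Subread with featureCounts, DESeq, DESeq2 and build hg19 are named in the submitters' processing notes, with strand setting and treatment of shared reads not given in the sources used here. Every test started from the raw counts and gene lengths that the authors deposited. They also deposited a table of counts over size factors (a signal per gene), log2 fold changes, standard errors and adjusted p-values, from which values credited to it were read. Titles gave the groups. Genes were kept by filterByExpr, scaled by TMM and tested with edgeR's quasi-likelihood F test across all genes (R 4.3.3 with edgeR 4.0.16 and limma 3.58.1), p-values adjusted by Benjamini-Hochberg, a threshold of 0.05 and 95% intervals from the derived standard errors. CPM use TMM-scaled sizes, and a prior count of 2 was added for log2 CPM. Length trends were fitted by lowess with span 0.3. Ratios were tested with exact permutation tests over samples, two-sided. A count of 3, the floor, corresponds to 0.0509 to 0.0628 CPM. Chromosomes and gene order came from GENCODE 29 and RefSeq by symbol, a later build than the counts, and sequences from RefSeq.

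The members and gene lists were chosen with earlier results of these data known. The text names all 10 members, SKI, up to 4 called genes of each list with the smallest p, and the 2 genes most like a called member. SUZ12P, S1PR2, CCNE1, CCNE2, CDC6, PCNA, MKI67, MCM2, MCM4, PLK1, KDM2B, SETD1B, MTF2, JARID2, KDM6A, KDM6B and single markers were named outside that rule. Also outside it were BARX1, TBX15 and NEUROG2. Alternatives were DESeq2 size factors, library totals, no filter, a filter at 1 CPM in 3 libraries, the Wald test of DESeq2 1.42.0, limma-voom, a replicate block, leaving out each library and chromosome centring. Chosen after seeing the data were neighbour centring, removal of length trends, and leaving out 2 libraries. The fit was tested on simulated data for this comparison, with 16340 genes: 80% of 2-fold and 100% of 4-fold changes were recovered, and false calls made up 7.22%.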

Additional observations from a re-analysis of the deposited data

How the results depend on the processing

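DNMT1 kept its direction in all 17 alternatives and its call in 12. Its log2 fold change was -0.22 with chromosome centring and -0.19 with neighbour centring, without a call in either, and -0.82 to -0.64 when single libraries were left out. The count of the 10 genes called was 2 with no filter and in DESeq2, 0 with chromosome or neighbour centring, and 0 to 2 without single libraries. The second gene was DNMT3B each time. EZH2 turned to 0.047 with neighbour centring and ranged from -0.24 to 0.12 without single libraries. TET1 ranged from -0.10 to 0.82 and EED from -0.04 to 0.26 in the same way, and EED was at -0.037 without control replicate 1 and knockout replicate 3. DNMT3A, DNMT3B, TET2, TET3, EZH1 and SUZ12 kept their direction in all 17 alternatives. Over all genes, 1932 passed, 740 to 2488 without single libraries (740 when control replicate 3 was left out, 932 for control replicate 2 and 1025 for knockout replicate 1), 1286 with neighbour centring and 1400 with chromosome centring. The cause of the lost and gained calls was not tested in any of these settings.

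With the replicate number as a block 2107 genes passed and DNMT1 was at -0.72 (edgeR adjusted p = 0.0191), and the block changed no call among the 10 genes. Deviations from group means of same-numbered libraries correlated across genes at -0.19, 0.42 and -0.10 for numbers 1, 2 and 3, and the highest of the 9 values was 0.54, for control replicate 1 with knockout replicate 3. Number 2 alone was above 0.1, so the numbers were not taken as pairs. Between 47930276 and 58553247 counts a library, depth limits TET1 most, with 50 to 191 counts.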
